A study of Homo sapiens with 3 samples.

Results

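The hepatocyte identity genes are 46 genes that mark liver parenchymal cells: 20 secreted plasma proteins, 4 cell surface proteins, 11 transcription factors and nuclear receptors, and 11 metabolic enzymes. They were chosen by name as textbook liver markers, with earlier results of these data known. Of the 46, 43 had a probe set annotated with that gene's symbol alone, out of 19775 genes measured. No probe set was matched to HNF4A, NR1I2 or NR1H4, which are not analysed here. Each gene is represented by its probe set with the highest mean log2 signal over the 3 arrays. The labels give the cells as HepG2, a line grown from a human liver tumour, kept in DMEM with fetal bovine serum and stably transfected. One array carried the label of an Hsp27 open reading frame vector (ORF), one that of an Hsp27 hairpin vector (shRNA, although its title says siRNA), and one that of a control vector whose title names EGFP. Whether the lines were clones or pools was not stated, and each group had 1 array, so no difference below has a replicate check.

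Hepatocytes make most of the proteins of blood plasma, including albumin, the apolipoproteins, the carriers of iron and retinol, and the clotting factors. They also detoxify ammonia through the urea cycle, break down amino acids and drugs, and release glucose. A network of transcription factors, among them the FOXA and C/EBP families, maintains this programme by binding the promoters and enhancers of liver genes and of each other. HepG2 cells are known for keeping much of the secretory part of it, and AFP, the fetal counterpart of albumin, is a common marker of liver tumours.

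Signals are log2 values, and 2 levels pooled over all probe sets and arrays are used for reference. The median was 5.93 on the log2 scale (60.8 linear), and a gene is called bright where its mean reached the 75th percentile, 8.63 (396.6 linear). Detection calls were not used here, so a reading below the median is called low and not absent. The targeted gene HSPB1, which encodes Hsp27, read 13.11 with ORF, 13.03 with shRNA and 13.25 with control, so the arrays are named by their labels only. Beside most differences of single genes between arrays stands a probe-set noise SD. It is the spread, at like signal, between the differences shown by 2 probe sets of the same gene, which leaves out variation between cultures. The order of levels between genes depends partly on how well each probe set binds, and only the order of arrays for 1 probe set is free of that.

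Most hepatocyte identity genes read low on all 3 arrays, which goes against the labelled cell type. By its mean signal, 11 of the 43 measured members lay above the pooled median, while 59.7% of all 19775 genes did. Only 4 members were bright (9.30%), against 39.7% of all genes. The median member read 4.86 with ORF, 4.72 with shRNA and 4.69 with control, and the median gene read 7.33, 7.32 and 7.33. In rank, the median member stood above 29.0%, 26.2% and 26.0% of genes on these arrays. The 31 members that stayed at or below the median on every array ran from 0.00 to 5.83. The same low ranks were thus seen with all 3 vectors, and the 4 bright members, ASS1, CPS1, RBP4 and CEBPA, stood well apart from the others. ASS1 and CPS1 alone gave 91.2%, 91.0% and 89.9% of the summed linear signal of the measured members.

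**Figure D1:**
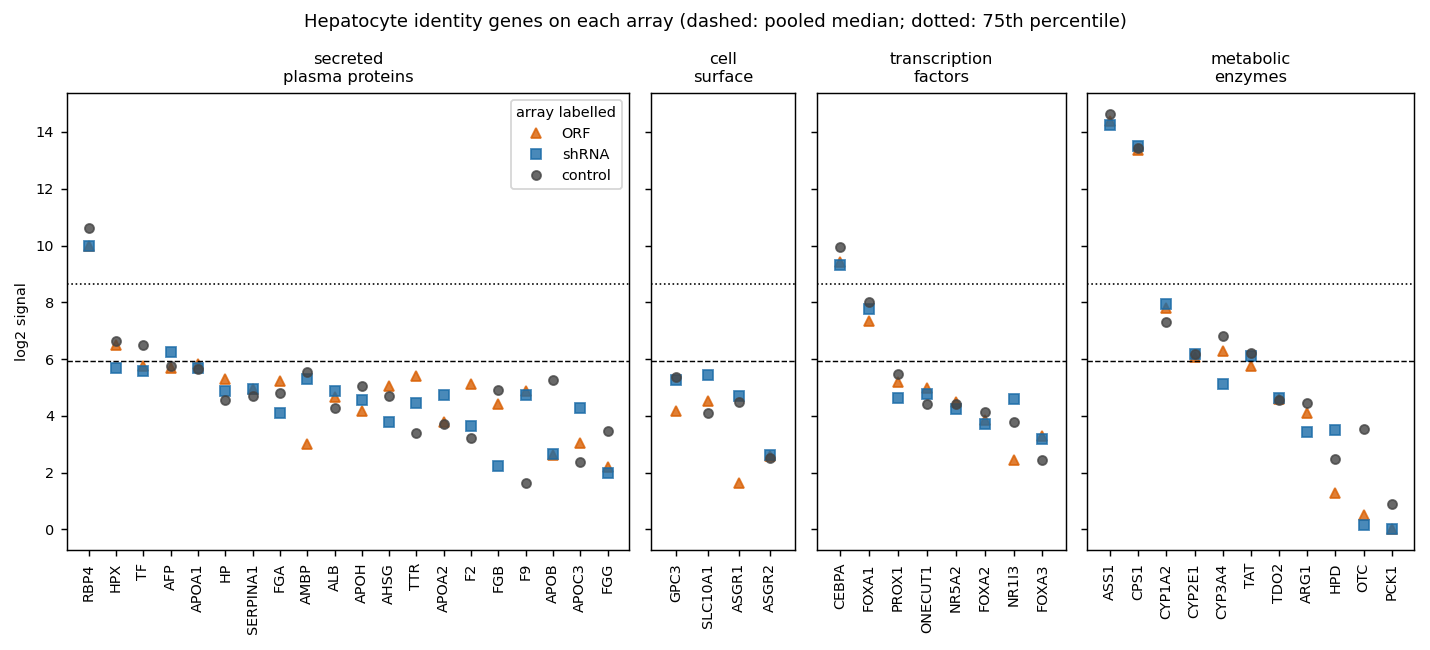
Log2 signal (vertical axis) of each measured hepatocyte identity gene on the arrays labelled ORF (triangles), shRNA (squares) and control (circles), by role and ordered by mean. The dashed line is the pooled median of 5.93 and the dotted line the 75th percentile of 8.63; ASS1, CPS1, RBP4 and CEBPA lie above the dotted line on every array.

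Among the secreted plasma proteins, RBP4, the carrier of retinol in blood, was the exception. It read 9.97 with ORF, 9.99 with shRNA and 10.62 with control, above 72.9%, 73.3% and 79.7% of genes. Of the 20 secreted members, 3 had a mean above the median (15%) and 1 was bright (5%), where 59.7% and 39.7% of all genes were. ALB, which encodes albumin, the main plasma protein, read 4.68, 4.88 and 4.27 in the same order of arrays, above 26.9%, 28.0% and 21.6% of genes. All 4 of its probe sets were low, and their means did not exceed 4.61. AFP read 5.70, 6.25 and 5.75, so only the shRNA array passed the median. Its mean of 5.90 lay just under the median, and that of TF (transferrin, the iron carrier), at 5.95, just over it. TF read 5.74, 5.59 and 6.51, above the median with control alone. HPX (hemopexin, which binds free heme) read 6.49, 5.70 and 6.64. At this signal the probe-set noise SD of a difference between arrays was 0.405 to 0.420.

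The apolipoproteins among the 46 genes, which build lipoprotein particles, read below the median on every array by the probe set that represents each gene. APOA1, the main protein of high-density lipoprotein, came nearest with 5.83, 5.67 and 5.64. Another APOA1 probe set read 5.42, 5.12 and 6.13, above the median with control. APOB, the backbone of low-density lipoprotein, read 2.62, 2.66 and 5.25. APOA2 read 3.80, 4.75 and 3.71, APOC3 3.04, 4.29 and 2.36, and APOH 4.19, 4.57 and 5.04. Outside the 46, APOC1 (7.48, 7.61 and 7.79), APOE (6.73, 7.16 and 7.42) and APOM (8.01, 8.43 and 8.41) read above the median on every array, each by a probe set whose name ends in _x_at. APOA4 (2.77, 5.13 and 5.57), APOA5 (5.86, 3.97 and 6.61) and APOC2 (5.93, 6.20 and 3.43), also outside the 46, had means below the median. TTR (transthyretin, which carries thyroid hormone) read 5.41, 4.47 and 3.41.

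The fibrinogen chains form the clot protein and are made together in liver. FGA read 5.24 with ORF, 4.11 with shRNA and 4.82 with control. FGB read 4.41, 2.25 and 4.90, and FGG 2.19, 1.99 and 3.46. All 3 chains were thus low on every array. The clotting factors F2 (prothrombin) and F9 read 5.12, 3.64 and 3.23, and 4.86, 4.72 and 1.65. SERPINA1, the elastase inhibitor alpha-1-antitrypsin, read 4.95, 4.93 and 4.70, with 4 probe sets all below the median. AHSG (fetuin-A) read 5.06, 3.80 and 4.69, HP (haptoglobin, which binds hemoglobin) 5.31, 4.89 and 4.55, and AMBP (alpha-1-microglobulin and bikunin) 3.02, 5.29 and 5.53. Over the 17 secreted members whose mean was not above the median, the spread between the highest and lowest array was 0.19 to 3.21 with a median of 1.26.

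The 4 cell surface proteins were below the median on every array. GPC3, a glypican often raised in liver tumours, read 4.16 with ORF, 5.27 with shRNA and 5.37 with control. SLC10A1, the bile acid uptake carrier, read 4.54, 5.44 and 4.09. ASGR1 and ASGR2, the subunits of the receptor that clears desialylated glycoproteins, read 1.63, 4.71 and 4.49, and 2.57, 2.62 and 2.50. ASGR2 stood above 9.8%, 9.3% and 8.9% of genes.

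Of the 8 measured transcription factors and nuclear receptors, 2 lay above the median (25%) and 1 was bright (12.5%), where 59.7% and 39.7% of all genes were. CEBPA, a C/EBP factor of liver and fat, read 9.41 with ORF, 9.32 with shRNA and 9.96 with control, above 67.4%, 66.7% and 72.9% of genes. FOXA1, a pioneer factor shared by liver and other endoderm-derived and hormone-responsive epithelia, read 7.36, 7.77 and 8.02, near the middle of the ranks at 50.1%, 52.9% and 54.8%. Its relatives were low: FOXA2 read 3.85, 3.71 and 4.12, and FOXA3 3.30, 3.20 and 2.43. ONECUT1 (HNF6) read 4.97, 4.76 and 4.41, and PROX1, a homeobox factor of early liver and lymphatic cells, 5.20, 4.62 and 5.47. The drug-sensing receptor NR1I3 (CAR) read 2.43, 4.58 and 3.77, and NR5A2 (LRH-1, a regulator of bile acid synthesis) 4.50, 4.26 and 4.43. CEBPA and FOXA1 were therefore the only measured regulators of the 46 genes that read above the median, and did so on every array.

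The metabolic enzymes held both the brightest and the dimmest of the 43 measured members, and the urea cycle enzymes among them lay at both ends. ASS1 (argininosuccinate synthase, which joins citrulline and aspartate) read 14.38 with ORF, 14.26 with shRNA and 14.65 with control, above 99.5%, 99.4% and 99.7% of genes. CPS1 (carbamoyl phosphate synthetase, the mitochondrial entry step of the cycle) read 13.37, 13.51 and 13.43, above 97.7%, 98.0% and 97.8%. Its second probe set read 12.57, 12.86 and 12.60, also bright on each array. Both genes were bright with every vector. At the other end, OTC (ornithine transcarbamylase, the step between CPS1 and ASS1) read 0.50, 0.15 and 3.55. ARG1, the liver arginase that releases urea, read 4.11, 3.45 and 4.47. ASL, the lyase that follows ASS1 and was listed outside the 46, was bright at 9.92, 9.23 and 9.49, and the mitochondrial arginase ARG2 read 7.95, 8.20 and 8.06. PCK1 (cytosolic PEP carboxykinase of gluconeogenesis) was the dimmest member, at 0.03, 0.00 and 0.88, whereas its mitochondrial counterpart PCK2 read 8.75, 8.13 and 9.06.

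The 3 cytochromes and TAT had means above the median, and HPD and TDO2 below it. CYP1A2, which oxidises caffeine, read 7.80, 7.95 and 7.32, but its other probe set had a mean of only 3.02. CYP2E1, the ethanol-inducible cytochrome, read 6.08, 6.18 and 6.17. CYP3A4, the main drug-oxidising cytochrome of liver, read 6.30, 5.13 and 6.83, and its 4 other probe sets had means of 1.66 to 5.59. TAT (tyrosine aminotransferase) read 5.74, 6.12 and 6.22. HPD, the next enzyme of tyrosine breakdown, read 1.29, 3.51 and 2.49, and TDO2, which opens the ring of tryptophan, 4.59, 4.63 and 4.55. In all, 6 of the 11 enzymes had a mean above the median (54.5%) and 2 were bright (18.2%). Over all genes these shares were 59.7% and 39.7%, so the enzymes lay near the first and below the second.

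Several of the readings above the median rested on a single probe set. Of the 43 members, 16 had 1 probe set and 27 had several, for 91 in all. Of the 48 probe sets that did not represent their gene, 1 had a mean above the median, the second one of CPS1. The brightest probe set of a gene exceeded the next by a median of 1.36 on the log2 scale. The widest gap, 6.90, belonged to RBP4, whose other probe set read 4.24, 3.08 and 2.56. Of the 11 members above the median, 5 (RBP4, CYP3A4, CYP1A2, TAT and ASS1) were read by probe sets with names ending in _x_at or _s_at, which may match more than 1 transcript. ASS1 had no other probe set, so its level had no second reading. A further HP probe set, which also carries another gene's symbol and was left out, read 3.04, 2.78 and 6.05.

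**Figure D2:**
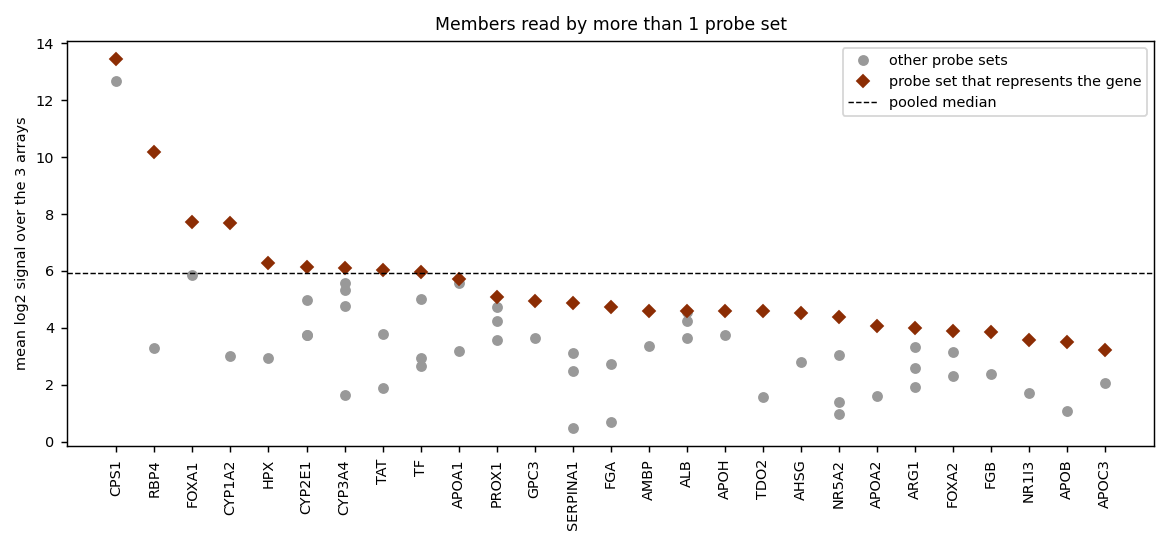
Mean log2 signal over the 3 arrays (vertical axis) of every probe set of the 27 members with more than 1, ordered by the probe set that represents the gene (diamonds; circles are the others). The dashed line is the pooled median of 5.93, and the second probe set of CPS1 is the only circle above it.

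Promoter letters that liver factors are known to read, and separately those of the TATA box, were counted in the members, as a description of sequence. Windows from 250 bases before to 50 bases after the start site were taken from RefSeq's promoter table for GRCh38.p14, and 34 of the 46 genes matched, with 46 windows. Windows of 1 gene can overlap and hold the same match, so genes with a match in any window are counted too, among 27305 genes in all. Of the 46 windows, 10 held TTGCNNAA, a C/EBP motif (21.7%), and 10.5% of all 35116 windows did. By gene it was in 9 of the 34 (26.5%, against 12.7% of all genes). The letters TATAAA, as in a TATA box, were in 13 windows (28.3%, against 11.5%) and in 11 genes (32.4%, against 14% of all genes). They were counted anywhere in the window, and in OTC, TDO2 and NR5A2 the match starts 192, 216 and 201 bases before the start site, farther than a TATA box usually lies. RBP4 has a match 31 bases before the start in a window. In another of its windows the matches start 227 and 225 bases before the start, and in a further one 4 and 6 bases after it. TGTTTGC, a FOXA motif, was in 6 of the 46 windows (13%, against 3.89% of all) and 6 genes (17.6%, against 4.76% of all genes). Its variant TGTTTAC was in 2 windows (4.35%, against 3.42%) of 2 genes (5.88%, against 4.19%). CAAAGTNCA, an HNF4 motif, was in 2 windows (4.35%, against 1.10%) of 2 genes (5.88%, against 1.36%). Every motif was sought on both strands. Matches of the motifs may overlap one another. Shown here are ALB and FGA, as low secreted genes, and the brightest member, ASS1, with the matched letters in capitals. ALB lies at chr4:73404037-73404336 on the plus strand, FGA at chr4:154590693-154590992 on the minus strand and ASS1 at chr9:130444711-130445010 on the plus strand, and each is printed in the direction of transcription.
ALB: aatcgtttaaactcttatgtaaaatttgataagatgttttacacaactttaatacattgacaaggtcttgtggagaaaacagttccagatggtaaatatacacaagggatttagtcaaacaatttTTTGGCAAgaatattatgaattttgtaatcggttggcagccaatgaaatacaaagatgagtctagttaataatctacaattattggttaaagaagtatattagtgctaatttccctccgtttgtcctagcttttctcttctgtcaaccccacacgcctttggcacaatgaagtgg
FGA: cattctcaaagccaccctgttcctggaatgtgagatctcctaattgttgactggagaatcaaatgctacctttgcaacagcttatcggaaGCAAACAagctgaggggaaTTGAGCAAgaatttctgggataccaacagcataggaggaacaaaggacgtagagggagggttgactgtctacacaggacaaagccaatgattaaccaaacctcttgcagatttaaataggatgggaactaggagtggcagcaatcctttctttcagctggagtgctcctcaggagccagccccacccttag
ASS1: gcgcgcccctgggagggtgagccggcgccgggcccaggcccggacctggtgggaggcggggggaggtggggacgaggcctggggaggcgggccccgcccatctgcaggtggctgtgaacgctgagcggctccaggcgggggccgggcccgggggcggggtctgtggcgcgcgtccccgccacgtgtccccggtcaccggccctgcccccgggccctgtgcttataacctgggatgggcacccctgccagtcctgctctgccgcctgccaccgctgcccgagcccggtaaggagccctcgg
The ALB window has a C/EBP match starting 125 bases before the start site. In FGA, a FOXA match lies 160 and a C/EBP match 141 bases before the start. ASS1 has no match to these letters in either of its listed windows. The printed genes do not stand for low and bright members at large. The bright RBP4 has a C/EBP match 111 bases before the start in a window, and the low APOH, FGG and F2 have no match. Letters that match a motif are no proof of a site, and the arrays did not measure binding.

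In wider liver lists set beside the 46 genes, secreted products were mostly low and regulators mostly above the median. Of 42 other measured secreted hepatocyte proteins, 9 had a mean above the median and 2 were bright: complement C3, at 12.69, 12.43 and 11.96, and IGFBP1, which binds insulin-like growth factors, at 9.97, 9.55 and 8.86. Of 37 other enzymes and transporters, 11 were above the median and 6 bright, among them the bile acid ligase SLC27A5 (10.21, 9.96 and 10.28), the organic anion exporter ABCC2 (9.56, 9.44 and 9.63) and FAH, the last enzyme of tyrosine breakdown (9.48, 9.61 and 9.35). Of 17 other regulators, 15 were above the median and 13 bright, where 59.7% and 39.7% of all genes were. The endoderm factors GATA4 (10.57, 10.29 and 10.71), GATA6 (9.24, 9.35 and 9.31) and HHEX (9.76, 9.58 and 9.57) were bright on every array. ONECUT2, the relative of ONECUT1, read 9.64, 9.79 and 9.69. CEBPB, with a mean of 13.16, was the brightest of these regulators, followed by XBP1 (10.99, 11.16 and 10.97), and both are active in many tissues.

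For comparison, 22 measured genes known from unrelated tissues, such as insulin and growth hormone, had 6 with a mean above the median and 1 bright. The share above the median was 27.3%, against 25.6% of the hepatocyte identity genes, and the median ranks were 17.6%, 22.4% and 18.0%. The bright one was CGA, the common subunit of pituitary and placental glycoprotein hormones, at 12.67, 12.69 and 12.01. Of 11 bile duct and progenitor markers, 5 were above the median (45.5%) and 4 bright (36.4%), where 59.7% and 39.7% of all genes were. KRT7 led at 13.33, 13.43 and 13.35, while KRT19 read 2.76, 3.59 and 0.81. Of 12 fibroblast and stellate cell markers, 7 were above (58.3%) and 3 bright (25%), both below those shares of all genes. LUM (lumican) led at 13.03, 13.35 and 13.30, while PDGFRA read 1.53, 3.05 and 4.62. Of the 6 general epithelial and mesenchymal markers, all but CDH1 were bright. Endothelial markers had 2 of 9 above and 0 bright, and leukocyte markers 0 of 8. The summed linear signal ran from 18464 to 20156 for the bile duct list, from 10693 to 13253 for the fibroblast list and from 174 to 223 for the leukocyte list. For the measured hepatocyte identity genes it ran from 34437 to 40845, most of it from ASS1 and CPS1. The 2 brightest genes likewise gave 80.6% to 82.0% of the bile duct sum and 87.3% to 90.9% of the fibroblast sum. These sums therefore mainly reflect a few bright genes. Whether other cells contributed to any member's level was not tested.

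**Figure D3:**
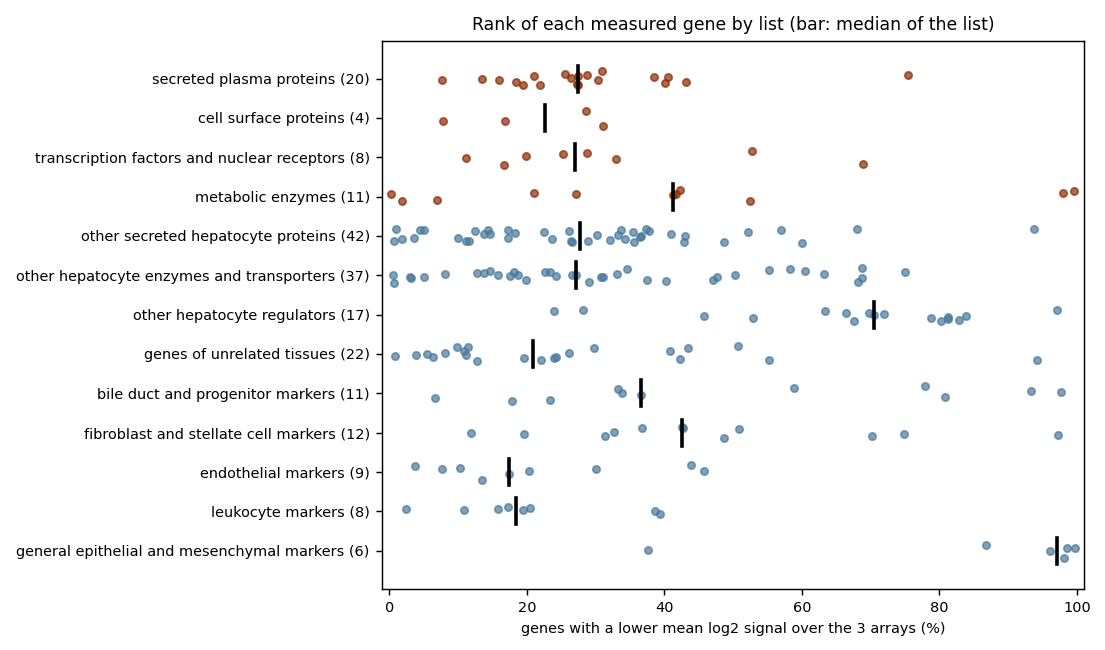
Percentage of all 19775 genes with a lower mean log2 signal (horizontal axis) for each measured gene of the hepatocyte identity roles (upper 4 rows) and of the other lists, with the number of genes in brackets and a bar at each list's median. Secreted, surface and regulatory members gather in the lower ranks apart from RBP4, CEBPA and FOXA1, while ASS1 and CPS1 lie at the right edge, and most of the other regulators stand above the middle.

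Between the arrays, differences could be read for 12 members that passed the median on at least 1 array. Of these, 7 passed on all 3 arrays and 5 (AFP, TF, HPX, CYP3A4 and TAT) on some, and the latter entered only through the arrays where they were high. Signals under the median were set to it before log2 differences were taken. Both comparisons with control share the control array, so their directions are not independent. Control held the highest reading of 4 of the 7 members that passed on all 3 arrays, and of 36.5% of the 11261 genes that did.

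RBP4 and CEBPA were lower on the ORF and shRNA arrays than on that of the control vector. For RBP4 the log2 difference was −0.65 for ORF (1.57-fold lower, noise SD 0.145) and −0.63 for shRNA (1.55-fold lower, noise SD 0.162). The other probe set of RBP4 stood below the median on every array, and the median of both probe sets turned the ORF difference to 0.518. CEBPA differed by −0.54 for ORF (1.46-fold lower, noise SD 0.183) and by −0.64 for shRNA (1.56-fold lower, noise SD 0.229). FOXA1 differed by −0.66 for ORF (noise SD 0.301) and by −0.25 for shRNA (noise SD 0.307), the latter within the noise, and with the median of its 2 probe sets the ORF difference was −0.049. Between ORF and shRNA, RBP4 differed by −0.02 and CEBPA by 0.09, both within their noise SDs of 0.140 and 0.202. The bright urea cycle enzymes differed less. ASS1 was −0.27 for ORF and −0.39 for shRNA, and CPS1 was −0.06 and 0.08. For both genes the noise SDs were 0.075 for ORF and 0.104 for shRNA. With quantile normalization the ASS1 differences were −0.145 and −0.218. CYP1A2 was the only member with readings above control on both arrays by more than the noise, at 0.48 and 0.63 (noise SDs 0.301 and 0.307).

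At 1.5-fold, ORF against control had 2 of 12 members lower, RBP4 and FOXA1, and 0 higher, where 2.82% and 3.04% of 12664 genes were. TF missed the threshold by little, at −0.58, and the floor sets its size, because it was below the median with ORF and shRNA. For shRNA against control, 4 members were lower (RBP4, CEBPA, HPX and CYP3A4) and 1 higher (CYP1A2), against 3.30% and 3.59% of genes. HPX and CYP3A4, at −0.71 and −0.90, were below the median with shRNA, so the floor limits them too, and the noise SD there is 0.407. Both entered through the ORF and control arrays, so with shRNA they could only come out lower. Their place in the count was therefore set by how they entered, and only RBP4 and CEBPA passed the median on all 3 arrays. ORF against shRNA had 0 members lower and 0 higher, against 2.68% and 2.64% of genes. With signals floored at the median, no member reached 2-fold in any of the 3 comparisons. Without a floor CYP3A4 did, at −1.699 for shRNA against control and 1.174 for ORF against shRNA, where the shRNA reading is below the median. Over the 7 members that passed the median on all 3 arrays, the median difference was −0.268 for ORF against control, −0.25 for shRNA against control and −0.096 for ORF against shRNA, and over the 11261 genes that did so it was −0.001, −0.015 and 0.013. With the 5 others added it was −0.281, −0.318 and −0.058. Taking the median of each gene's probe sets, which left 6 members, gave −0.046, −0.14 and 0.106, so the size depended on the probe sets and for ORF against shRNA the sign did too. With 1 array a group these are differences between arrays, and the number of arrays limits their precision.

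**Figure D4:**
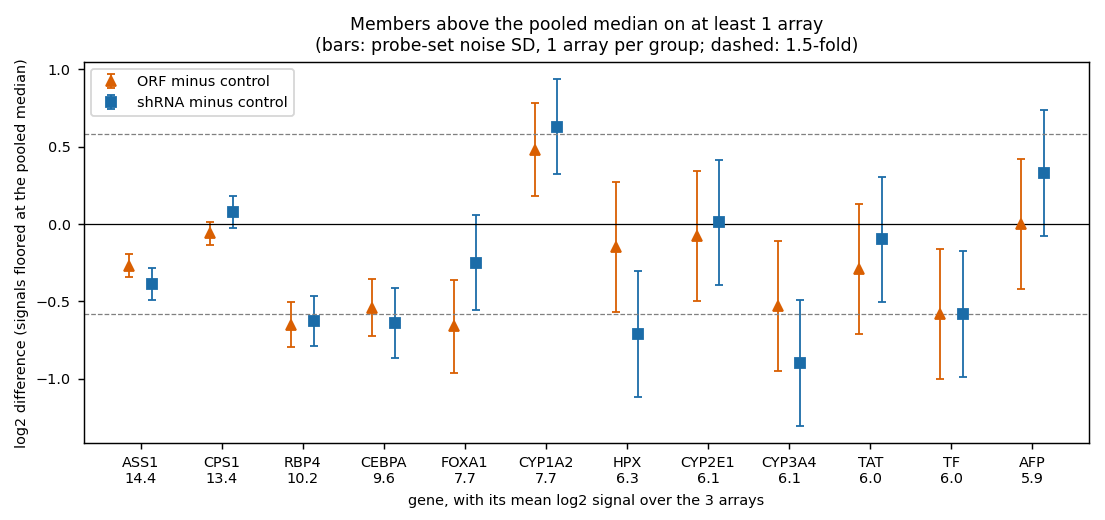
Log2 difference from the control array (vertical axis) of the 12 members above the pooled median on at least 1 array, for ORF (triangles) and shRNA (squares), ordered by mean signal given under each name. Bars are the probe-set noise SD and dashed lines mark 1.5-fold; RBP4 lies below the lower line in both comparisons and CPS1 close to 0.

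In the other liver lists, 39 genes passed the median on at least 1 array, and 4 of them (10.3%) were at least 2-fold apart in a comparison, where 2.30% of the 12664 genes were. IGFBP1 was 2.16-fold higher with ORF than with control and 1.61-fold higher with shRNA (noise SDs 0.182 and 0.214). PC (pyruvate carboxylase, which feeds gluconeogenesis) was 1.73-fold lower with ORF and 2.05-fold lower with shRNA (noise SDs 0.184 and 0.234). KHK (ketohexokinase) was 2.01-fold lower with shRNA than with control, with a noise SD of 0.421. CYP2D6 entered only through the shRNA array, where it read 7.45. It read below the median with ORF (4.67) and control (5.60). With shRNA it could therefore only come out higher, and the floor sets the size of its difference. Its place among the 4 thus follows partly from how it entered. The 2.30% of all genes was counted under the same entry rule.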

How the data were processed

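The authors' deposited table holds log2 signals, 1 for each of 54675 probe sets on 3 arrays, made with MAS5 per the submitters' processing notes; which version was run, its target and its calls were not stated in the labels used here. The log2 scale was read from the deposited values: the linear mean without the highest and lowest 2% was 500.1 on every array. Per the labels' protocols, RNA was column-purified and biotin-labelled by 3′ in vitro transcription.

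GEO's platform annotation named the probe sets (41097 with 1 symbol, 1801 with several, 11777 with none), and 41043 matched RefSeq's gene table for GRCh38.p14. Values were used as deposited. Samples were grouped by their transfection label, with 1 array each, so no test was run. Probe-set noise came from 2753 genes whose 2 brightest probe sets lay above the median and within 1 of each other, in 20 bins of signal; the computation was tested on simulated data. Members and lists were chosen with earlier results of these data known. Any member could be named. Other listed genes were named where bright (at most the 6 brightest of a list) or 2-fold apart. Also named, and chosen after their values were seen, were APOA4, APOA5, APOC1, APOC2, APOE, APOM, KRT19, PDGFRA, CDH1, ARG2, GATA4, GATA6, HHEX, ONECUT2 and the promoters shown. Python 3.11.15, numpy 2.4.6 and pandas 2.3.3 were used. One planned promoter motif is not reported here. Alternatives changed the scaling, the floor, the probe sets and the fold.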

Additional observations from a re-analysis of the deposited data

How the results depend on the processing

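The low level of most members was seen under each alternative run, while the counts depended on the probe sets chosen. Above the median were 11 of 43 members; taking the median of a gene's probe sets left 5, and without _x_at and _s_at probe sets 6 of 33, of which 2 were bright in place of 4. Scaling changed neither count by more than 1.5 times. Without a floor, 2 members were at least 1.5-fold higher for ORF against shRNA, in place of 0.

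With the floor at the 75th percentile, 4 members could be compared: 1 was lower for ORF against control, and 2 were lower and 0 higher for shRNA against control. Over median probe sets, 6 members gave 0 lower, 1 lower and 0 higher. Without _x_at and _s_at probe sets, 7 members gave 1, 2 and 0. At 2-fold all of these counts were 0. Fewer members compared accounts for part of these lower counts. RBP4, ORF against control, became 0.518 with the median of its 2 probe sets. No other member past 1.5-fold changed direction under these alternatives.

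The median difference of the 12 compared members was −0.281 for ORF and −0.318 for shRNA, each set against control, and −0.058 for ORF set against shRNA. Of these members, 5 entered only through the arrays where they were high, and the 7 others gave −0.268, −0.25 and −0.096. Over median probe sets the median difference was −0.046, −0.14 and 0.106. Without _x_at and _s_at probe sets it was −0.153 for ORF against control and −0.096 for ORF against shRNA. With the floor at the 75th percentile it was −0.509 for shRNA against control and 0.037 for ORF against shRNA, and scaling the arrays to a common median above the floor gave −0.124 for the latter. The cause was not tested. Depth is not a measure for arrays.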
